A study of Saccharomyces cerevisiae with 4 samples.

Results

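Large ribosomal subunit proteins are the protein part of the 60S particle, and the genes for Rpl1 to Rpl20 in Saccharomyces cerevisiae were followed here in newly synthesized RNA of cells with and without Syc1, the subunit found in the APT complex but not in CPF, the machinery that cleaves and polyadenylates mRNA 3′ ends. The genes were chosen by name as RPL1 to RPL20 with both paralogues where there are 2, which gives 37 genes. Of these, 34 have a counted region among the 4970 regions of the count table, and all 34 passed the filter on low counts. RPL7A, RPL7B and RPL12A were not analysed here. The groups were Δsyc1 (SYC1 replaced by kanMX, 2 libraries) and wild-type (2 libraries). Both are the BY4741 strain, a haploid laboratory strain of mating type a with auxotrophic deletions, grown at 30 °C in YPD to an OD600 of 0.8. Both were labelled with 5 mM 4-thiouracil for 6 min, so that RNA made in that time carries a thiol and can be purified and sequenced (4tU-seq). Per the study's methods the replicates are biological, but the labels do not say how the cultures were paired, and they name 1 deletion strain.

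The ribosome of yeast carries most of its large subunit proteins as the product of a pair of genes left by an ancient genome duplication, and the proteins of a pair are identical or nearly so. A few, among them Rpl3, Rpl5 and Rpl10, come from a single gene. Transcription of these genes is driven by a shared set of factors, among them Rap1, Fhl1 and Ifh1, which bind their promoters, and their output takes up a large part of the work of RNA polymerase II in growing cells and falls together under stress. Many of the genes carry an intron near their start, which is rare among yeast genes.

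Libraries held 26089573 and 22880058 counts in Δsyc1 and 36175417 and 35203133 in wild-type. SYC1 (YOR179C) had 1 and 2 counts in Δsyc1 and 743 and 794 in wild-type, which fits the labels. LEU2, MET17 and URA3, which BY4741 lacks, had 0 counts in every library, and the a-cell gene STE2 was present in all 4, while of the alpha-cell genes MF(ALPHA)1 had 1 and 0 counts in Δsyc1 and 5 and 5 in wild-type, STE3 had 108 and 70 counts in Δsyc1 and 105 and 110 in wild-type, and SAG1 was present at 87 to 95 CPM in all 4 libraries, so the alpha-cell list is not at 0 throughout. The 4 counted a-cell markers were lower in Δsyc1, where their summed level was 701 to 757 CPM (counts scaled to a common library size with TMM factors), against 1568 to 1623 CPM in wild-type. Of these markers 3 were called down. Their part in the results below was not tested.

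The sequences that the known regulator Rap1 would read are shown first, because Rap1 is known to bind most ribosomal protein promoters. In the 500 bases upstream of each counted region, the core of the Rap1 site (CACCC, any 2 bases, then ACA, on either strand) was found in 6 of the 34 genes (17.6%), against 26.0% of the other 96 ribosomal protein genes and 2.28% of all 4909 mRNA regions. Capitals mark the motif in the lines that follow, 10 bases are given on each side, and all sequences read 5′ to 3′ on the strand of the gene (sacCer3). In RPL13A the motif is on the other strand and so reads as its reverse complement.
RPL2A, chrVI:221912-221941, minus strand: agacttttttCACCCGTACAtttttaacac
RPL8A, chrVIII:36246-36275, minus strand: atgaagaaaaCACCCAAACAtatctaggcc
RPL13A, chrIV:308133-308162, plus strand: tttttcaacaTGTATGGGTGttttttctga
RPL13B, chrXIII:551520-551549, minus strand: gtacattacgCACCCATACAtttatagttt
RPL14A, chrXI:431485-431514, plus strand: agcgcaaataCACCCATACActatttttac
RPL20B, chrXV:901532-901561, minus strand: cgggactgttCACCCGTACAttttacgttt
The sites lay between 211 bases (RPL8A) and 480 bases (RPL2A) before the start of the counted region. RPL13B holds a further site, at 393 bases. Of the 5 complete pairs with a site, only RPL13 has it in both paralogues, and in the other 4 it stands before 1 paralogue. The RPL13 sites cannot be assigned to RPL13 alone. They also lie within the 500 bases before a small subunit gene that faces the other way, RPS16B for RPL13A and RPS16A for RPL13B. A looser spelling (CA, any base, CC, any 3 bases, then CAT), which was chosen after the values were seen and whose matches can overlap those of the core, was found before 12 of the 34 genes (35.3%), 55.2% of the other ribosomal protein genes and 5.87% of all mRNA regions. Both spellings were thus less frequent here than in the other ribosomal protein genes, a difference that was not tested. These are matches of letters, not measured binding.

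Most of the 34 genes had a lower level in Δsyc1, and falls outnumbered rises. RPL10, RPL9B, RPL8A, RPL18B, RPL2B, RPL15A and RPL16B fell by more than 1.5-fold, no gene rose by that much, and the other 27 were not called. The 7 genes are 20.6% of those tested, and 8.15% of all 4845 genes tested were called down in the same fit (edgeR quasi-likelihood test, calls at an adjusted p below 0.1 with a change of more than 1.5-fold). None of the 34 was called up, where 9.08% of all genes were. DESeq2 also called 7 down and 0 up, and 2 genes, RPL6A and RPL6B, had a positive change at an unadjusted p under 0.05. Log2 fold changes ran between −1.36 and 0.56, with a median of −0.28 and quartiles of −0.46 and −0.07, against a median of −0.02 and quartiles of −0.25 and 0.24 over all genes tested. The change was negative in 28 of the 34 (82.4%), against 51.6% of all genes. It was negative in 24 with an offset for region length (all-gene median −0.001). Without Δsyc1 replicate 1 it was negative in 23 (all-gene median −0.022), and without Δsyc1 replicate 2 in 31 (−0.016). With no fold change minimum 21 members were lower (61.8%) at an adjusted p under 0.1, against 35.5% of all genes, and 2 were higher, against 33.5%. These counts also changed with the offset for region length, as given below. Together the 34 genes took 0.684% ± 0.066 of all counts in Δsyc1 and 0.927% ± 0.0132 in wild-type (SD, n = 2 each), for which p was 0.33 (two-sided exact permutation over libraries), the smallest that 2 against 2 allow. Every change is relative to the other RNAs of the library, and in a bulk culture fewer expressing cells and less RNA per cell cannot be told apart.

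**Figure D1:**
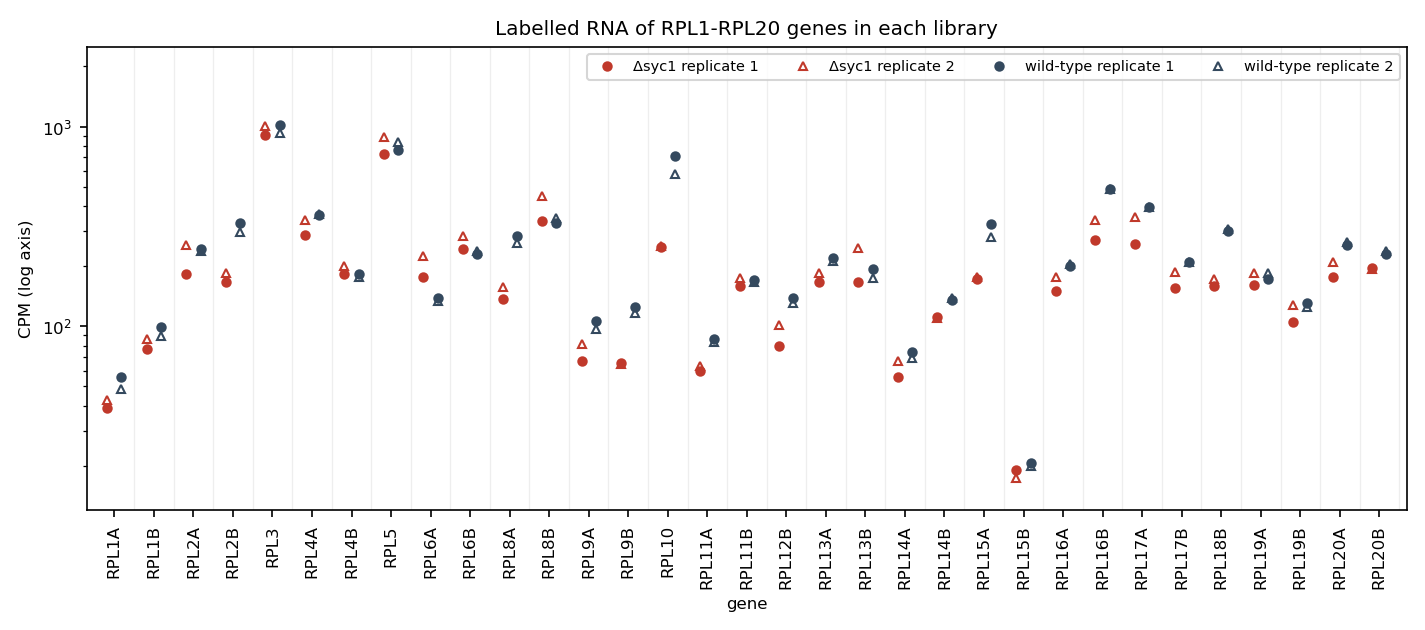
Level of 33 of the 34 genes in each library, in CPM on a log axis, with red symbols for Δsyc1 and dark symbols for wild-type (filled circles, replicate 1; open triangles, replicate 2). RPL10 shows the widest gap, with 249 and 252 CPM in Δsyc1 below 578 and 713 CPM in wild-type, and RPL15B is the lowest gene throughout.

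In 22 of the 34 genes (64.7%) both Δsyc1 libraries lay below both wild-type libraries, where 43.2% of all genes did so. In 2 of the 34 both lay above, where 40.5% of all genes did. The groups overlapped in the other 10. The 2 Δsyc1 libraries were not alike for these genes. Replicate 2 was above replicate 1 in 30 of the 34, by a median of 0.21 on the log2 scale, whereas over all genes tested the median was −0.003 and 48.9% were above. Between the wild-type libraries the same median was −0.05 for these genes and −0.01 for all genes. The difference was not particular to these genes. Summed over the other large subunit and stalk genes, the Δsyc1 libraries had 3700 and 4254 CPM, against 4834 and 4875 CPM in wild-type. Summed over the small subunit genes, they had 7330 and 8471 CPM, against 9149 and 9268 CPM in wild-type. Without Δsyc1 replicate 1 the median of the 34 was −0.18, with 6 called down and 1 up, and without Δsyc1 replicate 2 it was −0.39, with 10 called down. Counted regions of these genes are short, between 612 and 1303 nt with a median of 1027 nt, against 1437 nt for all genes tested. Those of the other ribosomal protein genes are short too, between 296 nt (RPL41B) and 1378 nt (RPS0B). After an offset for region length the median was −0.16 with 7 called down and 1 up.

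**Figure D2:**
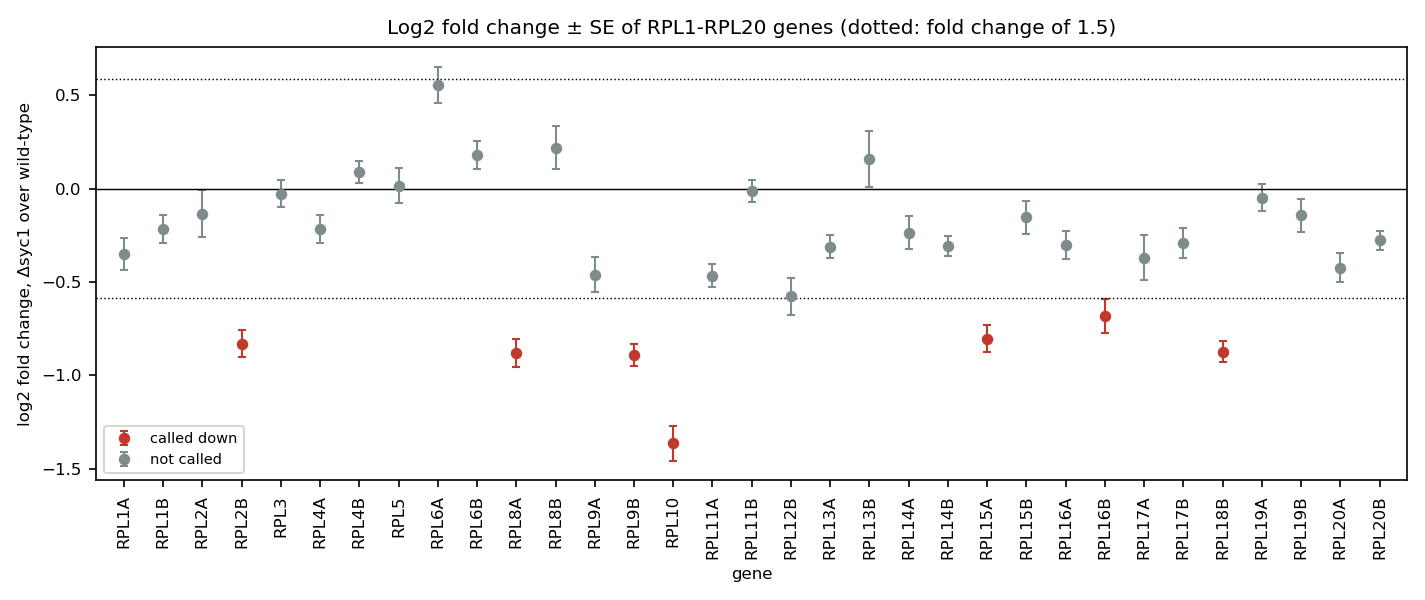
Log2 fold change of Δsyc1 over wild-type for 33 of the 34 genes, with bars for the standard error and dotted lines at a fold change of 1.5. The 7 genes called down are in red, RPL10 lowest at −1.36 ± 0.09, and RPL6A is highest at 0.56 ± 0.10, just inside the upper dotted line.

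The single-copy genes behaved differently from each other. RPL10 (YLR075W, chromosome XII, 282907 to 283733, sacCer3 as for all positions here) encodes uL16, which joins the subunit late, in the cytoplasm, and sits near the catalytic centre. It had 249 and 252 CPM in Δsyc1, against 713 and 578 CPM in wild-type. The wild-type libraries differed from each other more than the Δsyc1 libraries did, and the groups were far apart. The log2 fold change was −1.36 ± 0.09 (SE, edgeR adjusted p 6.97e-06), a 2.57-fold lower level in Δsyc1. RPL3 (YOR063W, chromosome XV, 444665 to 445967) encodes uL3, which reaches towards the catalytic centre, and had 906 and 1007 CPM in Δsyc1, against 1020 and 928 CPM in wild-type. RPL5 (YPL131W, chromosome XVI, 303103 to 304109) encodes uL18, which carries the 5S rRNA into the subunit together with Rpl11, and had 725 and 886 CPM in Δsyc1, against 760 and 834 CPM in wild-type. Both overlapped between groups, with log2 fold changes of −0.03 ± 0.07 and 0.02 ± 0.09 (edgeR adjusted p 0.772 and 0.900), and either sign flips under some alternatives. Per kilobase of counted region RPL5, RPL10 and RPL3 were the 3 highest of the 34 genes in wild-type, at 792, 781 and 747 CPM per kb. In Δsyc1 the levels were 800 (RPL5), 303 (RPL10) and 734 (RPL3) CPM per kb.

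None of the 3 regions shares a repeated 50-mer with the rest of the genome, so their counts do not depend on how reads from near-identical copies were placed. That is not so for all members. Of the 34 regions, 12 had over 10% of their 50-mers repeated elsewhere, and RPL1A had the most with 69.6%. RPL1B (64.05%), RPL4A (66.23%), RPL4B (65.94%), RPL11A (48.25%) and RPL11B (49.57%) followed. Counts of these 12 are uncertain, and 1 of them, RPL2B, was called down. The median log2 fold change was −0.23 in the 12 and −0.30 in the other 22. By position, RPL11A overlaps SNT309 on the other strand by 100 nt and RPL9A overlaps RRT6 on its own strand by 4 nt, while the other 32 regions overlap no other counted region. Whether counting used strand is not given in the sources used here.

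Among genes with a paralogue, each call fell on 1 member of a pair. Of the 17 pairs 15 had both members counted, and in 6 of these 1 paralogue was called down and the other was not. In the other 9 neither was called. Because a paralogue ratio is taken within a library, it does not depend on how libraries were scaled. The ratio of A to B did not overlap between the groups in 12 of the 15 pairs (80.0%), and it differed by over 1.5-fold in 4 (26.7%). Over all 55 tested pairs of genes whose symbols differ in a final A or B, the 15 included, these shares were 78.2% and 29.1%. Nearly all of the 40 other pairs are ribosomal protein genes too, so they do not stand for paralogues in general. Unequal change of paralogues was about as frequent here as in those 40 pairs (77.5% and 30.0%). An exact permutation test over 2 against 2 libraries cannot give a p under 0.33, which was the value for all 12 pairs without overlap.

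**Figure D3:**
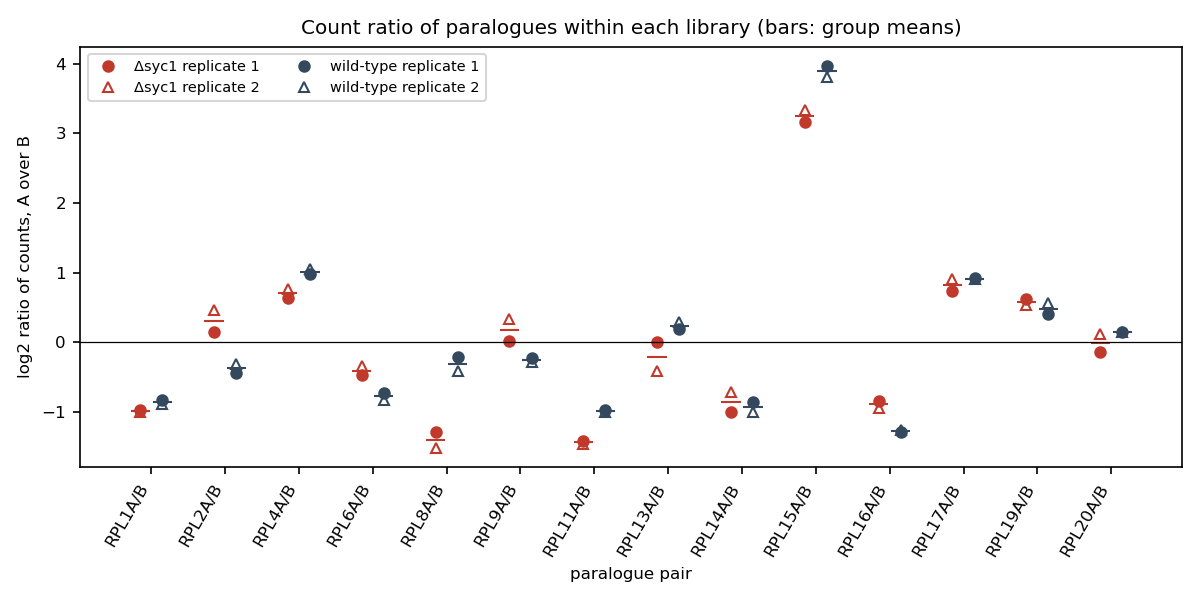
Log2 ratio of the counts of paralogue A to paralogue B within each library for 14 of the 15 pairs, with red symbols for Δsyc1 and dark symbols for wild-type, and a bar at each group mean. RPL8 shows the widest gap between the groups, −1.40 in Δsyc1 and −0.31 in wild-type, and RPL15A exceeds RPL15B in every library.

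The RPL8 pair, which encodes eL8, differed most. RPL8A (YHL033C, chromosome VIII, 34765 to 36045) had 138 and 158 CPM in Δsyc1, against 282 and 262 CPM in wild-type (−0.88 ± 0.07 SE on the log2 scale, edgeR adjusted p 2.42e-05). RPL8B (YLL045C, chromosome XII, 47783 to 48652) had 336 and 450 CPM in Δsyc1, against 328 and 347 CPM in wild-type, and its groups overlapped (0.22 ± 0.12, adjusted p 0.128). The sign for RPL8B turned to −0.01 without Δsyc1 replicate 2. The log2 ratio of A to B was −1.29 and −1.51 in Δsyc1 and −0.22 and −0.41 in wild-type, a difference of −1.09 ± 0.15 (SE of the difference), or 2.13-fold. Scaled by region length, RPL8A gave 21.8% and 19.2% of the pair's counts in Δsyc1 and 36.9% and 33.9% in wild-type. The coding sequences are 95.1% identical, yet only 4.06% and 6.09% of the 50-mers of the 2 regions are repeated, so most reads could be placed.

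RPL2 encodes uL2, a core protein near the catalytic centre, and here the B copy fell. RPL2B (YIL018W, chromosome IX, 316745 to 318019) had 167 and 186 CPM in Δsyc1, against 329 and 297 CPM in wild-type (−0.83 ± 0.07 SE, edgeR adjusted p 2.89e-05). RPL2A (YFR031C-A, chromosome VI, 220349 to 221442) had 184 and 257 CPM in Δsyc1, against 244 and 239 CPM in wild-type, so that the wild-type values lay between the Δsyc1 libraries (−0.13 ± 0.13, adjusted p 0.379; the sign flips without Δsyc1 replicate 1). The log2 ratio was 0.14 and 0.47 in Δsyc1 and −0.43 and −0.31 in wild-type, a difference of 0.68 ± 0.17, and without Δsyc1 replicate 2 it was 0.52, under 1.5-fold. In this pair 19.43% (A) and 16.56% (B) of the 50-mers are repeated.

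RPL15 encodes eL15, and its copies differ most in level. RPL15A (YLR029C, chromosome XII, 201842 to 202613) had 172 and 176 CPM in Δsyc1, against 325 and 281 CPM in wild-type (−0.80 ± 0.07 SE, edgeR adjusted p 3.65e-05). RPL15B (YMR121C, chromosome XIII, 509683 to 510383) had 19.2 and 17.5 CPM in Δsyc1, against 20.8 and 19.99 CPM in wild-type, from 374 to 789 counts (−0.15 ± 0.09, adjusted p 0.160; 0.06 after the length offset). The minor copy was also lower in both Δsyc1 libraries, but by less than the major one: the log2 ratio was 3.16 and 3.33 in Δsyc1 and 3.97 and 3.81 in wild-type, a difference of −0.64 ± 0.11, or −0.56 without Δsyc1 replicate 1 and −0.57 without wild-type replicate 1, both under 1.5-fold. Scaled by region length, RPL15A still gave 89.1% and 90.1% of the pair's counts in Δsyc1 and 93.4% and 92.7% in wild-type.

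RPL18B (YNL301C, chromosome XIV, 63411 to 64586), which encodes eL18, had 159 and 174 CPM in Δsyc1, against 300 and 309 CPM in wild-type (−0.87 ± 0.06 SE, edgeR adjusted p 6.72e-06). Its libraries lay well apart between groups and close together within them. RPL9 and RPL16 also held a call each. RPL9B (YNL067W, chromosome XIV, 499649 to 500486), which like RPL9A encodes uL6, had 65.8 and 64.4 CPM in Δsyc1, against 124 and 117 CPM in wild-type (−0.89 ± 0.06 SE, edgeR adjusted p 6.54e-06). RPL9A was also lower, with −0.46 ± 0.09 (adjusted p 0.00283), under the fold change minimum. With the length offset RPL9A was −0.245 (edgeR adjusted p 0.104). RPL16B, which encodes uL13, was the call nearest to the threshold, at −0.68 ± 0.09 (adjusted p 0.000345), and was not called without Δsyc1 replicate 1 (−0.53). RPL16A had −0.30 ± 0.08. In RPL9 and RPL16 the difference of the log2 ratio was under 1.5-fold, at 0.43 ± 0.16 for RPL9 and 0.38 ± 0.05 for RPL16. That of RPL9 was 0.27 without Δsyc1 replicate 2 and 0.58 without Δsyc1 replicate 1, at the edge of 1.5-fold.

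The RPL6 pair, which encodes eL6, lay on the other side of zero. RPL6A (YML073C, chromosome XIII, 123151 to 124197) had 176 and 224 CPM in Δsyc1, against 138 and 134 CPM in wild-type, and RPL6B had 244 and 285 CPM in Δsyc1, against 229 and 238 CPM in wild-type. In both genes the Δsyc1 libraries lay above the wild-type libraries, the 2 members of which this was true. The log2 fold changes were 0.56 ± 0.10 (edgeR adjusted p 0.00139) and 0.18 ± 0.07 (adjusted p 0.0621), both under the fold change minimum, which on the log2 scale is 0.585. RPL6A was called up after the length offset (0.68) and without Δsyc1 replicate 1 (0.72), but was 0.37 without Δsyc1 replicate 2. RPL6B was 0.06 without Δsyc1 replicate 2 (adjusted p 0.344) and 0.03 without normalization factors (adjusted p 0.751), against 0.28 without Δsyc1 replicate 1. At the other side of the range RPL12B, whose protein uL11 forms the base of the stalk, lay just inside the minimum with −0.58 ± 0.10 (adjusted p 0.00118), and was called down in 4 alternatives.

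In the remaining pairs neither copy was called. RPL11A, whose protein uL5 enters the subunit with Rpl5, had a log2 fold change of −0.47 ± 0.06 (edgeR adjusted p 0.000280), under the fold change minimum, while RPL11B had −0.01 ± 0.06, and the log2 ratio of the pair differed by −0.45 ± 0.03. RPL13A and RPL13B (eL13) had opposite signs, −0.31 ± 0.06 and 0.16 ± 0.15, but RPL13B had 166 and 246 CPM in Δsyc1, around its 194 and 175 CPM in wild-type. The ratio of this pair differed by −0.45 ± 0.21, and by −0.24 without Δsyc1 replicate 2 and −0.65 without Δsyc1 replicate 1, which is over 1.5-fold. RPL4A and RPL4B (uL4, which lines the exit tunnel) also had opposite signs, −0.22 ± 0.08 and 0.09 ± 0.06, with the high share of repeated 50-mers given above. The pairs RPL14, RPL17 (uL22, in the wall of the exit tunnel) and RPL19 (eL19, which forms a bridge to the small subunit) overlapped in their ratio, with differences of 0.07 ± 0.16, −0.09 ± 0.09 and 0.10 ± 0.09. Both copies were lower in RPL14 (−0.24 ± 0.09 for A and −0.31 ± 0.05 for B) and in RPL17 (−0.37 ± 0.12 for A and −0.29 ± 0.08 for B). Both RPL19 copies overlapped between the groups (−0.05 ± 0.07 for A and −0.14 ± 0.09 for B). In RPL1, which forms the L1 stalk, both copies were also lower (−0.35 ± 0.08 for A and −0.22 ± 0.08 for B). With the length offset they were −0.16 and −0.05 (edgeR adjusted p 0.190 and 0.663). Both copies of RPL20 were lower too (−0.42 ± 0.08 for A and −0.28 ± 0.05 for B).

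Medians were alike by intron and by motif. An intron is present in 18 of the 34 counted regions, where it takes between 13.4% and 44.0% of the region, and the counted region spans it. The median log2 fold change was −0.28 in the 18 with an intron (3 called down) and −0.28 in the 16 without (4 called down). Of the 6 genes with the Rap1-type motif printed above, RPL8A was called down and the other 5 were not. Their median was −0.26, against −0.30 in the 28 without it. In the RPL8 pair the copy with the motif was the copy that fell, and in the RPL2 pair it was the copy that did not. With the looser spelling the medians were −0.25 in 12 genes and −0.30 in 22. These medians are descriptions and were not tested.

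Falls also outnumbered rises among the other ribosomal protein genes. Of 42 genes for RPL21 to RPL43 and the stalk, 16 were called down and 0 up (median −0.45; 29 lower and 4 higher at an adjusted p under 0.1 alone). With the length offset the median was −0.24, with 12 called down and 3 up. RPL41B (−1.29), RPL28 (−1.22) and RPP1A (−1.20) were among the 16. Of 54 small subunit genes, 17 were down and 3 up (median −0.32), with RPS17B (−1.52) lowest and RPS11B (1.54) highest. With the length offset their median was −0.18 and 12 were called down. All these values come from the same 4 libraries, and whether RPL1 to RPL20 differ from the other lists was not tested.

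**Figure D4:**
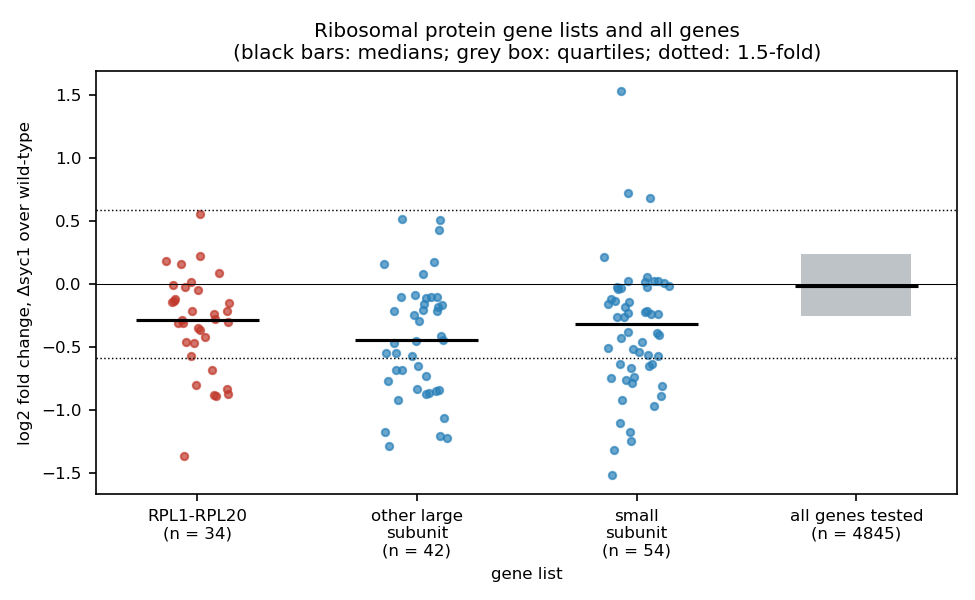
Log2 fold change of Δsyc1 over wild-type, one point per gene, for RPL1-RPL20 (n = 34), the other large subunit and stalk genes (n = 42) and the small subunit genes (n = 54), with a black bar at each median (−0.28, −0.45 and −0.32). The grey box spans the quartiles of all 4845 genes tested (−0.25 and 0.24) with its median at −0.02.

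Of 10 regulators of ribosomal protein and ribosome assembly genes, 8 had a counted region and 2 were called up. CRF1, a co-repressor that competes with Ifh1 for Fhl1 at these promoters, had 75.3 and 81.8 CPM in Δsyc1, against 18.5 and 15.4 CPM in wild-type (2.21 ± 0.09 SE on the log2 scale, edgeR adjusted p 5.65e-07). DOT6, a repressor of ribosome assembly genes, had 415 and 434 CPM in Δsyc1, against 260 and 285 CPM in wild-type (0.64 ± 0.06, adjusted p 4.71e-05). Its call was lost under upper-quartile scaling (0.55), without normalization factors (0.49), with the length offset, alone or with the replicate block (0.54), without wild-type replicate 1 (0.57) and with DESeq2 against a 1.5-fold change (0.65). RAP1 had −0.35 ± 0.05 (adjusted p 0.000461), SCH9, a kinase that promotes ribosome synthesis, had −0.36 ± 0.05 (adjusted p 0.000603), and TOD6, a relative of DOT6, had −0.53 ± 0.08 (adjusted p 0.000493), all under the fold change minimum, though TOD6 was called down in 5 alternatives. FHL1 (−0.07 ± 0.05), HMO1 (0.15 ± 0.06) and STB3 (0.13 ± 0.07) were not called.

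Several of these proteins are bound by a dedicated chaperone as they are made, and its gene was read beside its client. Neither edgeR nor DESeq2 called any of the 4 chaperone genes, though each passed an unadjusted p under 0.05, 2 of them higher and 2 lower. SQT1, the chaperone of Rpl10, had 208 and 206 CPM in Δsyc1, against 267 and 249.7 CPM in wild-type (−0.32 ± 0.05 SE, edgeR adjusted p 0.00109), a smaller change than that of RPL10. RRB1, the chaperone of Rpl3, had 0.27 ± 0.05 (adjusted p 0.00210), SYO1, which carries Rpl5 and Rpl11, had 0.17 ± 0.06 (adjusted p 0.0338), and ACL4, the chaperone of Rpl4, had −0.14 ± 0.06 (adjusted p 0.0623).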

How the data were processed

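Newly synthesized RNA of 2 Δsyc1 and 2 wild-type cultures was sequenced. The authors aligned paired-end reads of 50 nt to sacCer3 with STAR 2.3.0, kept proper pairs with a mapping quality of at least 7 with SAMtools, and deposited raw HTSeq counts per annotated region. Their own table of fold changes and p-values was not used. All 4970 regions lie inside the chromosomes of assembly R64 (the same build), and symbols came from its RefSeq table. Promoter windows were read from that genome.

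Counts were tested with edgeR 4.0.16 (R 4.3.3) over genes that averaged 30 or more counts in either group after scaling by size factors (DESeq2 1.42.0). Libraries were scaled by TMM, with group as the only term, and p-values were adjusted over all genes tested (Benjamini-Hochberg). Calls needed an adjusted p below 0.1 with a change of more than 1.5-fold. The standard error is the size of the log2 fold change over the root of F. That of a ratio difference comes from the spread of replicates. The procedure was run on simulated counts drawn independently for each library. That check does not cover a difference between replicates shared by many genes, as seen here in Δsyc1. Per-library values are given for single-copy genes, genes called up, the 6 strongest falls and the 4 pairs that differed most without overlap; values for RPL6, RPL13B and the lists' genes were added after they were seen. Of the members, 1 that is counted in the totals is not reported singly here. Members and lists were chosen with earlier results of these data known. Alternatives changed scaling, test, filter, thresholds, block, length offset and libraries.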

Additional observations from a re-analysis of the deposited data

How the results depend on the processing

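Over 15 alternative fits, RPL10, RPL9B, RPL8A, RPL18B and RPL2B (5 genes) were called down in each. Of the members' values 456 kept direction and call, 11 gained a call, 3 lost one and 25 changed sign, none of these a call. Between 5 and 10 members were called down in these fits, and 21 down and 2 up with no fold change minimum. RPL6A was the 1 member called up with the length offset, with the replicate block and length offset together, and in the leave-one-out fits, which gave 0 to 1. RPL15A (−0.79) and RPL16B lost their calls with DESeq2 against a 1.5-fold change, RPL16B also without Δsyc1 replicate 1. RPL12B was called down with upper-quartile factors (−0.66), without normalization factors (−0.73), and without Δsyc1 replicate 2 (−0.76) or wild-type replicate 2 (−0.61). RPL9A (−0.61) and RPL11A (−0.62) were called without normalization factors, and RPL9A and RPL17A (both −0.61) without Δsyc1 replicate 2.

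Without normalization factors the median of the members was −0.44 and that of all genes −0.17 (−0.10 with upper-quartile factors), and the members lay 0.27 below all genes, as in the reported fit. All-gene calls were then 655 down, against 127 down and 229 up with DESeq2 against a 1.5-fold change and 1719 down and 1623 up with no fold change minimum. In the other ribosomal lists the down calls fell to 8 and 8 with DESeq2 against a 1.5-fold change. The pairs that differed by over 1.5-fold numbered 2 without those over 10% repeated 50-mers. Library numbers were shared by label only, and the reported fit had group as its only term, so same-numbered libraries were not treated as pairs. Their deviations from the group mean correlated at −0.18. With 2 libraries a group the deviations of a group mirror each other, so this value cannot show that the cultures were unpaired. With the replicate block 7 members were called down, the median was −0.28 and 397 genes were down and 441 up.

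Signs changed with the length offset, alone and with the block, in RPL3 (0.011 and 0.010), RPL11B (0.229 and 0.226), RPL15B (0.056 and 0.055) and RPL19A (0.041 and 0.038). They changed without normalization factors in RPL4B (−0.063), RPL5 (−0.140) and STB3 (−0.020), with upper-quartile factors in RPL5 (−0.071), and with DESeq2 size factors and both DESeq2 tests in RPL11B (0.002 in each). Leave-one-out values ran between −0.397 and 0.086 for RPL2A, −0.109 and 0.046 for RPL3, −0.141 and 0.15 for RPL5, −0.010 and 0.413 for RPL8B, −0.080 and 0.052 for RPL11B, −0.156 and 0.414 for RPL13B and −0.153 and 0.044 for RPL19A. The cause was not tested. With 2 libraries a group a lone library is assumed to vary like the other group.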
